A study of Mus musculus with 4 samples.

Results

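The cytosolic ribosomal proteins were read from 106 of the 45037 probe sets (arrays of short probes for a transcript) other than control probe sets on a mouse 430 2.0 expression array. A probe set was taken if it was annotated to a single gene symbol that starts with Rpl or Rps and a digit, is one of the Rplp genes or is Rpsa, leaving out Rps6k kinases and annotated pseudogenes. These probe sets belong to 50 of the 18193 genes that have a probe set of their own here. Of them, 43 encode core proteins of the ribosome, 22 of the large and 21 of the small subunit, with 95 probe sets. Another 5 genes, with 7 probe sets, are paralogs (Rpl3l, Rpl22l1, Rpl39l, Rps27l and Rps4l). The last 2 are Rpl7l1, a relative with 3 probe sets that acts in ribosome assembly, and Rps19bp1, a gene with 1 probe set whose product binds Rps19 and is no ribosomal protein.

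The Chd4 RNAi group held 2 arrays of the mouse embryonic stem cell line Chd4i-1, derived from J1 cells, in which doxycycline at 5 ng/ml, given for 3 days, induced RNAi against Chd4, the ATPase that drives the chromatin remodelling complex NuRD. The control group held 2 arrays of the same line kept without doxycycline. Both groups were cultured with serum and LIF, the cytokine that keeps these cells undifferentiated, on plates coated with gelatin, and the series calls the samples biological duplicates. A single RNAi line was used, so that effects of doxycycline, of this line and of the loss of Chd4 cannot be told apart.

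Ribosomal proteins coat and hold the ribosomal RNA, and each is needed in about equal number, so cells make their mRNAs together and in large amounts. In mammals these mRNAs start with a run of pyrimidines, the 5′ TOP motif, through which mTOR signalling controls their translation, and the genes are known for short promoters rich in ETS-type, Sp1 and YY1 sites. A few genes have paralogs of narrower expression. Many processed pseudogenes resemble the mRNAs, and probe sets whose name ends in _x_at or _s_at can bind several of these sequences, which makes their values uncertain for any single gene.

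Of the 43 core genes, 38 had a promoter in the RefSeq table for build GRCm38.p6, with 44 promoters in all, each 300 bases long from 250 before to 50 after the transcription start. The hexamer CGGAAG, an ETS-type core sequence, stood on either strand in 63.6% of these 44 promoters and in 16.9% of all 32851 promoters of the table. The Sp1-type sequence GGGCGG stood on either strand in 54.5%, against 35.7% of all promoters, and could overlap other matches. The YY1-type sequence GCCATNTT was found in 13.6%, against 6.05%, and TATAAA in 11.4%, against 13.6%. A run of at least 6 pyrimidines on the coding strand lay within 20 bases of the start in 63.6%, against 37.5%. A match describes the letters only and is not evidence of a bound site.

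The 5 windows printed next run from 80 bases before to 20 after the start of the genes whose difference between the groups passed the test both on the deposited scale and after quantile normalization. Rpl3l also passed on both, but it was dim and has more than 1 listed start, and its windows hold no CGGAAG. Capitals mark CGGAAG or its reverse complement CTTCCG. All are printed 5′ to 3′ on the strand of the gene, which is the plus strand for these 5: Rpl22l1 at chr3:28805428-28805527, Rpl39l at chr16:10170148-10170247, Rplp2 at chr7:141447571-141447670, Rps25 at chr9:44407634-44407733 and Rpl37 at chr15:5116533-5116632.
Rpl22l1: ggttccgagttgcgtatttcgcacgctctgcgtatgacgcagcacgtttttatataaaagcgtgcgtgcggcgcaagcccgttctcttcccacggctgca
Rpl39l: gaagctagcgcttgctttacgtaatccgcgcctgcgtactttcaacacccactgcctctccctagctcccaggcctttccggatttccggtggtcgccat
Rplp2: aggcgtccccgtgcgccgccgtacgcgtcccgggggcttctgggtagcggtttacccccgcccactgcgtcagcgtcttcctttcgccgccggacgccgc
Rps25: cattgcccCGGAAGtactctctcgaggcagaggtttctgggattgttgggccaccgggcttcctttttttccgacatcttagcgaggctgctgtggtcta
Rpl37: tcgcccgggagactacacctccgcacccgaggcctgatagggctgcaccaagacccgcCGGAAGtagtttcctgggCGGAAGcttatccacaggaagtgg
The windows of the 3 genes with higher signal, Rpl22l1, Rpl39l and Rplp2, hold no copy of the hexamer. The windows of the 2 genes with lower signal, Rps25 and Rpl37, hold 1 and 2 copies. Core genes called higher on the deposited scale alone were divided. Rpl4, Rpl6 and Rps10 have 1 copy in this window, and Rpl37a, Rpl38 and Rpl41 have 2. Rpl19 has 1 in one of its windows and 0 in another, and Rpl7a, Rpl14, Rpl22 and Rps2 have 0. Whether the hexamer goes with the direction of the difference was not tested. In the whole promoters, Rpl22l1 had 0 copies, Rpl39l 2, Rplp2 1, Rps25 1 and Rpl37 3. The longest pyrimidine run near the start had 10, 7, 10, 12 and 6 bases in the same order of genes.

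The targeted gene was lower in the Chd4 RNAi arrays. The brightest Chd4 probe set had signals of 1155 and 1480.0 in the Chd4 RNAi arrays, against 2215 and 1826 in the controls. The knockdown mean was 65.0% of the control mean (limma, adjusted p = 0.00638). The share was 56.1% and 48.5% at the other probe sets of the gene. The deposited signals had a like trimmed mean on every array, 496.5 and 497.0 in the Chd4 RNAi arrays and 497.2 and 497.1 in the controls. The signal exceeded by the brightest 0.1% of probe sets was nevertheless 28932 and 27273 in the Chd4 RNAi arrays, against 25237 and 25872 in the controls. Many ribosomal protein probe sets lie in or near that bright range, and the part of this difference in the results below was not tested.

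Ribosomal protein mRNAs were among the brightest signals of these cells. Core genes lay at a median percentile of 99.811 and 99.818 in the Chd4 RNAi arrays, against 99.836 and 99.802 in the controls. The member probe sets made up 5.01% and 4.87% of the summed signal in the Chd4 RNAi arrays and 4.63% and 4.73% in the controls. In such bulk RNA, fewer cells of a type and less RNA per cell cannot be told apart. Of the 106 probe sets, 101 passed the filter on dim signals (the top 60% of probe sets by mean log2 signal). The 5 below it belong to Rpl27a, Rps3, Rps4x, Rps6 and Rps16, the last of which has no other probe set here, and all 5 lay under the median signal of every array.

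With the deposited values, 22 member probe sets were higher and 4 lower in the Chd4 RNAi arrays at an adjusted p under 0.05 (limma with an intensity trend, Benjamini-Hochberg over 27022 probe sets). Among all tested probe sets 7.46% were higher and 6.77% lower. After quantile normalization 4 members were higher and 9 lower, against a background of 7.11% and 6.64%, and 4 of the 22 rises and all 4 falls were called on both scales. The groups did not overlap at 57 members in the higher and 18 in the lower direction, beside 27.5% and 28.4% of all tested probe sets. The median log2 difference of the members (Chd4 RNAi minus control) was 0.084 on the deposited scale and -0.029 after quantile normalization, beside -0.012 and -0.013 over all tested probe sets. The higher count also depended on single arrays: it was 5 without control replicate 1 and 10 without Chd4 RNAi replicate 1. Without an intensity trend limma called 0 of the 27022 probe sets, members included, while 5828 probe sets and 10 members had an unadjusted p under 0.05.

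By gene, with each gene read at its brightest probe set, 16 of 49 tested genes were higher and 2 lower, beside 10.3% and 7.79% of all 12615 tested genes. After quantile normalization 4 were higher and 3 lower, beside 9.92% and 7.57%. Among the 42 tested core genes 13 were higher, 2 were lower and 38 had a difference above 0. Their median log2 difference was 0.13, against 0.014 over all tested genes, and it was 0.018 after quantile normalization, when 1 was higher and 3 lower. The gene count was 4 without control replicate 1 and 6 without Chd4 RNAi replicate 1.

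**Figure D1:**
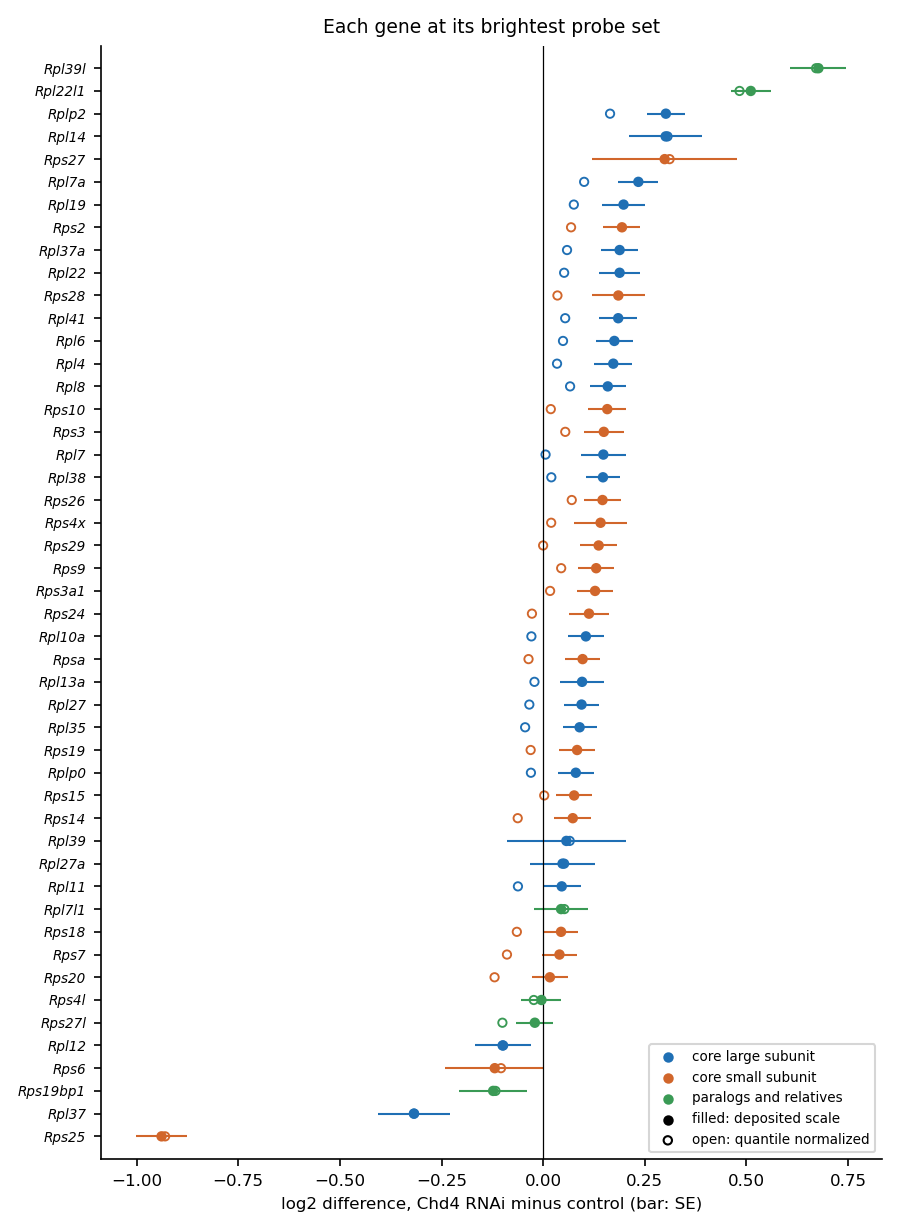
Log2 difference between Chd4 RNAi and control arrays (horizontal axis) for 48 of the tested genes at their brightest probe set, on the deposited scale (filled, with SE) and after quantile normalization (open). Most filled points of core genes lie a little right of 0 and their open points lie close to 0, while Rpl39l, Rpl22l1, Rps25 and Rpl37 hardly move between the scales. Rpl3l, a dim gene beyond the right edge, is not drawn.

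The arrays were not alike within the groups. On the deposited scale the median of the 42 core genes, each centred on its own mean over the 4 arrays, was 0.098 and 0.033 log2 units in the Chd4 RNAi arrays, against -0.082 and -0.037 in the controls. The groups did not overlap, and replicates of a group differed by an SD of 0.040. After quantile normalization the medians were -0.00067 and 0.0083 in the Chd4 RNAi arrays and -0.0012 and -0.0078 in the controls. Of the 34 core genes in the top 2% of signals, 29 were highest in Chd4 RNAi replicate 1 and 32 were lowest in control replicate 1.

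**Figure D2:**
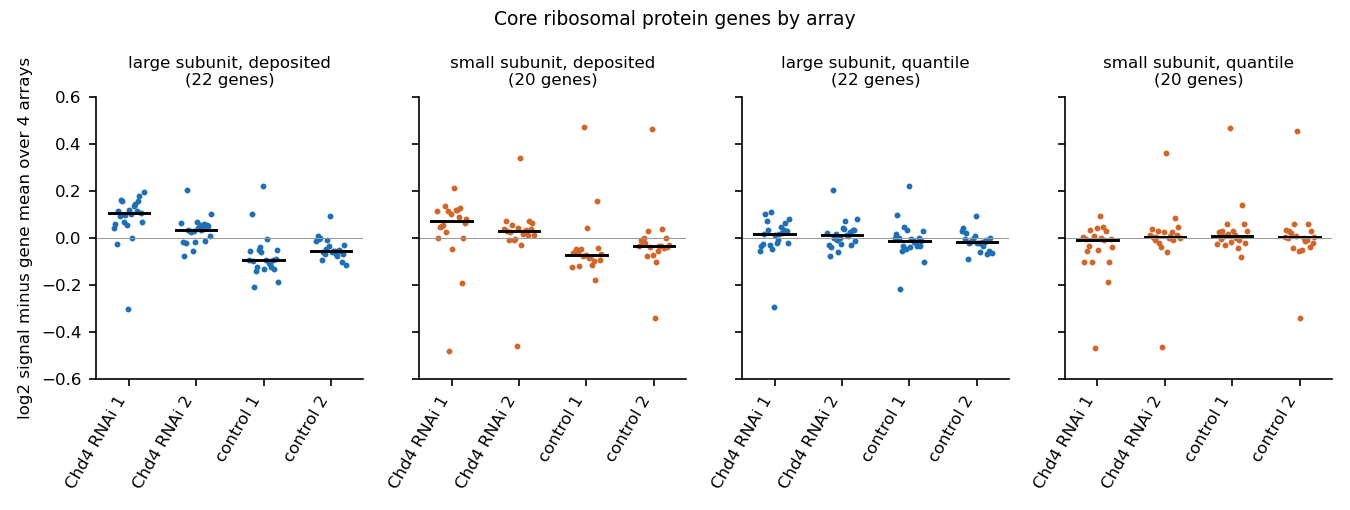
Each point is a core gene on an array, as its log2 signal minus its mean over the 4 arrays (vertical axis), for the large and the small subunit, with the deposited values (left pair of panels) and after quantile normalization (right pair). Bars are medians. On the deposited scale the bars of the 2 Chd4 RNAi arrays lie above 0 and those of the 2 control arrays below, and after quantile normalization all lie close to 0.

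All 34 core genes in the top 2% of signals had a difference above 0, between 1.16% and 23.3%, with a median of 10.1%. Of these, 12 passed the test as higher and 0 as lower (23 and 0 at an unadjusted p under 0.05). Probe sets of other genes in the same range were also shifted. The 752 probe sets in the top 2% that name no ribosomal protein had a median log2 difference of 0.054, 65.6% of them were above 0, and 16.6% were called higher and 7.71% lower, or 10.9% and 13.6% after quantile normalization. In the top 0.5% their median was 0.12 over 99 probe sets, the range that holds 56 core ribosomal protein probe sets. After quantile normalization that median was 0.0044. The step gives every array the same set of values, so a median near 0 in the brightest range is largely built in. The part of this bright-range shift in the result for ribosomal proteins was not tested. When each array was instead centred on the 752 probe sets, a setting chosen after seeing the data, 12 genes were higher and 2 lower, beside 8.45% and 8.24% of all genes, and the core median was 0.10. The 752 probe sets still had a median log2 difference of 0.027 under this setting. It subtracts a single value per array, so it cannot remove a shift that is larger in the top 0.5%.

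**Figure D3:**
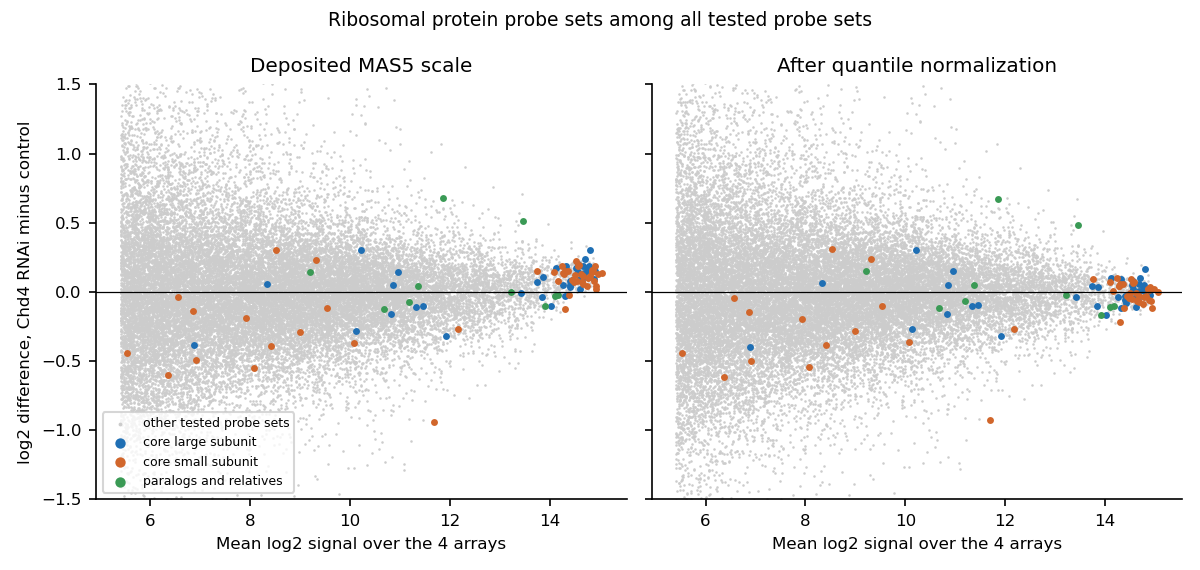
Log2 difference between Chd4 RNAi and control arrays (vertical axis) against mean log2 signal (horizontal axis) for all tested probe sets (grey) and for ribosomal protein probe sets (coloured by class), on the deposited scale (left) and after quantile normalization (right). The axis is cut at 1.5 either way. The dense group of ribosomal protein points at the bright end sits above 0 at left together with the grey points around it, and is centred near 0 at right.

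Most core probe sets of lower signal had differences below 0, while core genes of lower signal, each at its brightest probe set, were divided. The 25 tested core probe sets below the top 2% had a median log2 difference of -0.19, and of -0.20 after quantile normalization. Of these, 6 had a difference above 0, 1 was called higher and 4 lower, beside 7.46% and 6.77% of all tested probe sets. Several of them are further probe sets of genes whose brightest probe set lies in the top 2%. By gene, 4 of the 8 tested core genes below the top 2% had a difference above 0. The median of these 8 was -0.026, with 1 higher and 2 lower. The 65 core probe sets in the top 2% had a median of 0.12, with 59 above 0, 18 higher and 0 lower, and a median of 0.0027 after quantile normalization. Many genes have probe sets of both kinds. Of 21 genes with at least 2 tested probe sets, 14 had differences of both signs and 7 of a single sign, and 0 genes were called in opposite directions.

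**Figure D4:**
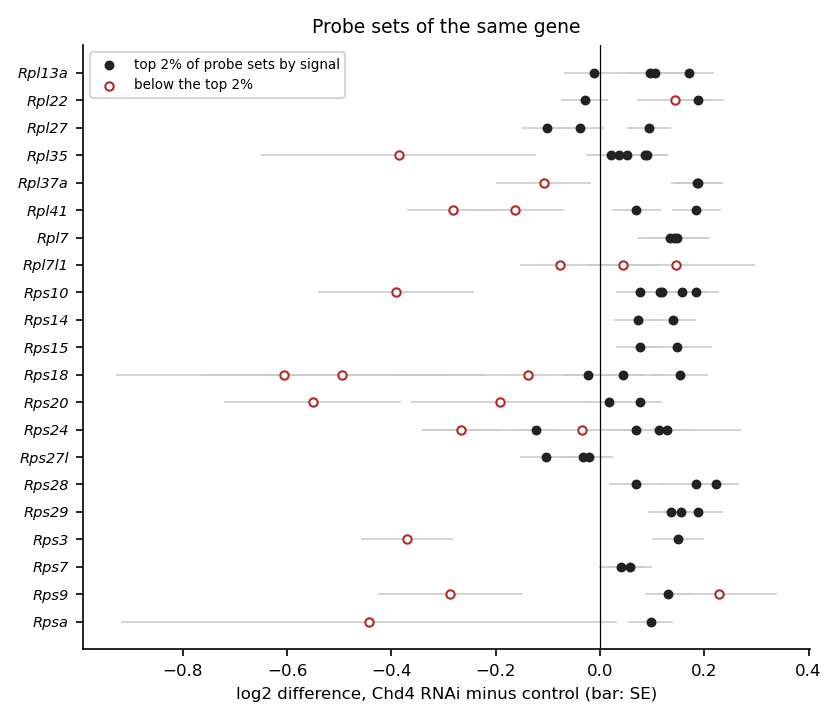
Log2 difference between Chd4 RNAi and control arrays (horizontal axis, bars are SE) for every tested probe set of the 21 genes with more than 1. Filled points are in the top 2% of signals and open points below it. Most filled points lie right of 0 and most open points left of it.

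Among the proteins of the large subunit, 11 of 22 core genes were higher, 1 was lower, and the median log2 difference was 0.15. Of all tested genes 10.3% were higher and 7.79% lower. Of the 22 genes, 17 lay in the top 2% of signals, and 10 of these were higher. Among the 752 probe sets in the top 2% that name no ribosomal protein 16.6% were higher. These are dimmer as a set: 447 of them lie between percentiles 98 and 99, while the large subunit core genes have a median percentile of 99.798. After quantile normalization 1 of the 22 was higher and 1 lower, beside 9.92% and 7.57% of all genes, and the median was 0.042. In the small subunit 2 of 20 tested genes were higher, 1 was lower, and the median was 0.12, or 0.0013 after quantile normalization with 0 higher and 2 lower. The difference between the medians of the subunits was 0.027, and 0.040 after quantile normalization. By array, the large minus the small median of the centred signals was 0.032 and 0.0055 in the Chd4 RNAi arrays, against -0.023 and -0.022 in the controls. Replicates of a group differed in this value by an SD of 0.013. The groups did not overlap, and the same held after quantile normalization, with 0.024 and 0.0059 against -0.022 and -0.019. With 2 arrays a group the smallest p of an exact two-sided permutation test is 0.333, so the subunit difference was not tested. Over all core probe sets in the top 2% the order of the medians was the other way, 0.11 for the 31 of the large and 0.12 for the 34 of the small subunit. The counts moved as well: with each gene averaged over its probe sets 8 large and 5 small subunit genes were higher, and with an array left out 2 to 11 and 0 to 7.

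The P stalk of the large subunit recruits the translation factors that act as GTPases. Rplp2, a stalk protein, had signals of 32751 and 30692 in the Chd4 RNAi arrays, against 25069 and 26382 in the controls. Both Chd4 RNAi arrays lay above both controls. The rise was 23.3% (log2 0.30 ± 0.047 SE, limma adjusted p = 0.00183), the largest among core genes in the top 2%, and it passed after quantile normalization at a log2 difference of 0.16 (adjusted p = 0.00593). Rplp0, which anchors the stalk, had signals of 22774 and 21836, against 20919.6 and 21264 in the controls, a log2 difference of 0.080 that did not pass (adjusted p = 0.268). Rpl12, at the base of the stalk, had 2777 and 2682, against 3036 and 2816, with a log2 difference of -0.10 (adjusted p = 0.391).

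Rpl11, which with Rpl5 and the 5S ribosomal RNA forms a particle that can inhibit Mdm2, had signals of 22521 and 21383 in the Chd4 RNAi arrays, against 20784 and 21746 in the controls. The groups overlapped and the log2 difference of 0.046 did not pass (limma, adjusted p = 0.586). Around the exit tunnel of the nascent chain, 4 of 6 genes were higher and 0 lower, beside 10.3% and 7.79% of all tested genes. Of other probe sets in the top 2% of signals 16.6% were higher. The median log2 difference of the 6 was 0.16, or 0.043 after quantile normalization with 0 higher and 0 lower. The 4 were Rpl4, Rpl19, Rpl38 and Rpl22, and the probe sets of Rpl22 differ in sign, as given below. Rpl4, which reaches into the tunnel wall, had 30303 and 28236, against 25620.4 and 26291 in the controls, a rise of 12.7% (adjusted p = 0.0299). Rpl19 had 27119 and 24782, against 21961 and 23262, a rise of 14.7% (adjusted p = 0.0284). Rpl38, known in mice for its part in the translation of Hox mRNAs, had 32849 and 31494, against 28694 and 29398, a rise of 10.7% (adjusted p = 0.0398). Rpl35 had a log2 difference of 0.090 and Rpl39 of 0.057, and neither passed.

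Other large subunit genes differed by similar amounts. Rpl7a had signals of 30215 and 27719.7 in the Chd4 RNAi arrays, against 24348 and 24861 in the controls, a rise of 17.6% (limma, adjusted p = 0.00870). After quantile normalization its log2 difference was 0.10 (adjusted p = 0.0595). Rises of 13.9% in Rpl37a, 13.7% in Rpl41, 12.9% in Rpl6 and 11.6% in Rpl8 had adjusted p values of 0.0169, 0.0239, 0.0261 and 0.0347. Other probe sets of the first pair of these genes went the other way. Beside 2 called higher, Rpl37a had a dimmer one at a log2 difference of -0.11 (adjusted p = 0.493), and a dim probe set that names Rpl37a beside a microRNA gene was lower at 727 and 910.0, against 1163 and 1245 in the controls (log2 -0.56, adjusted p = 0.00759, and -0.56 after quantile normalization). Rpl41 had dimmer probe sets at -0.28 (adjusted p = 0.0563) and -0.16 (adjusted p = 0.295), so its direction depends on the probe set. None of the higher calls of Rpl37a, Rpl41, Rpl6 and Rpl8, nor those of Rpl4, Rpl19 and Rpl38, was kept after quantile normalization. That step largely removes a rise shared by the brightest probe sets, so the lost calls are no test of such a rise. Rpl14 had 1272 and 1372, against 1029.5 and 1116, a rise of 23.2% at a dimmer probe set (adjusted p = 0.0463). Its log2 difference was 0.31 after quantile normalization (adjusted p = 0.0509). At 5 brighter probe sets that name Rpl14 beside a pseudogene the log2 difference lay between 0.030 and 0.17.

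Rpl37 was 1 of the 2 core genes with lower signal. Its probe set had signals of 3137 and 3827 in the Chd4 RNAi arrays, against 4512 and 4132 in the controls. The groups did not overlap, and the signal fell by 19.8% (log2 -0.32 ± 0.089 SE, limma adjusted p = 0.0353), with the same difference after quantile normalization (adjusted p = 0.0346). The call ended in 5 of 13 alternatives, among them those without control replicate 1 and without Chd4 RNAi replicate 1. Probe sets that name Rpl37 beside a retrotransposed copy did not show this fall. The brightest of them had 26297 and 27250.3 in the Chd4 RNAi arrays, against 26406 and 27055 in the controls, a log2 difference of 0.0022 (adjusted p = 0.980). The next had 28185 and 27257, against 25705 and 23906 in the controls, a log2 difference of 0.16 (adjusted p = 0.0437) that was 0.034 after quantile normalization. At a dim one the log2 difference was 0.031.

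In the small subunit, Rps2, at the mRNA entry side, had signals of 26919 and 25488 in the Chd4 RNAi arrays, against 22544 and 23259 in the controls. The rise was 14.4% (limma, adjusted p = 0.0157), and the log2 difference was 0.069 after quantile normalization (adjusted p = 0.176). Rps10, in the head of the subunit, had 32133 and 30466, against 27169.7 and 28953, a rise of 11.6% (adjusted p = 0.0466) that did not pass after quantile normalization (log2 0.019, adjusted p = 0.737). A second Rps10 probe set was higher too, while a dim one had a log2 difference of -0.39 (adjusted p = 0.110). In the head as a whole 1 of 9 tested genes was higher and 1 lower, near the 10.3% and 7.79% of all tested genes. The median log2 difference of these head genes was 0.084. After quantile normalization it was 0, with 0 higher and 2 lower, beside 9.92% and 7.57% of all tested genes. Rps29, also in the head, had the brightest probe set of all 4 arrays, at 37056 and 34468, against 32212 and 32810.0. Quantile normalization gives the brightest probe set of every array the same value, so its difference there was 0.

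Rps25, in the head near the exit side of the mRNA and known to be needed for initiation at some viral internal entry sites, had the largest fall. Its probe set had signals of 2364 and 2396 in the Chd4 RNAi arrays, against 4581 and 4545 in the controls. Replicates of a group were close and the groups were far apart. The signal fell by 47.8% (log2 -0.94 ± 0.062 SE, limma adjusted p = 5.12e-06), and by 0.93 on the log2 scale after quantile normalization (adjusted p = 1.43e-05). A brighter probe set that names Rps25 beside 2 predicted genes had 20246 and 19034 in the Chd4 RNAi arrays, against 18293 and 19117 in the controls. Its log2 difference was 0.070 (adjusted p = 0.394), so the fall stands at the dimmer probe set alone. No sequence of either probe set was used here, and which transcripts they read was not tested.

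**Figure D5:**
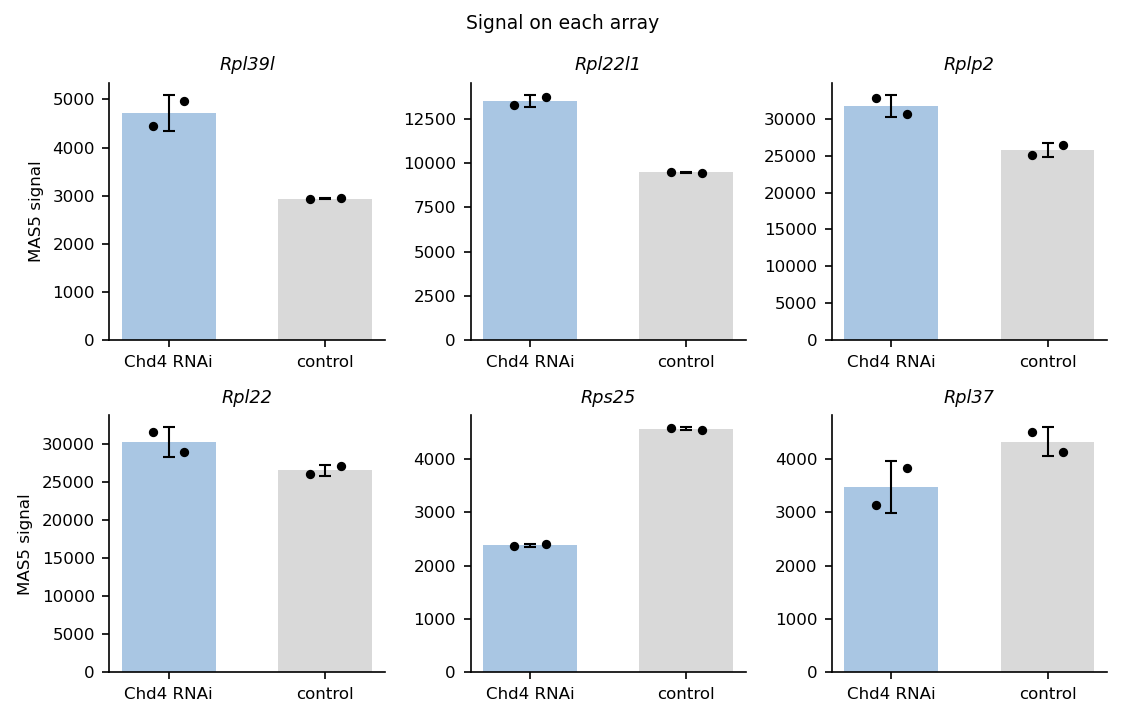
Deposited signal (vertical axis, linear, from 0) on each array for 6 genes at their brightest probe set. Points are arrays, bars are group means and whiskers are SD over the 2 arrays of a group. Rpl39l, Rpl22l1 and Rplp2 lie higher in the Chd4 RNAi arrays, Rpl22 by a smaller amount, and Rps25 and Rpl37 lower.

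Other small subunit proteins chosen for their known roles did not pass. Rpsa, which also binds laminin as a cell surface receptor, had signals of 29657 and 28312 in the Chd4 RNAi arrays, against 26733 and 27455 in the controls, a log2 difference of 0.097 (limma, adjusted p = 0.170). Rps6, the substrate of S6 kinase, was read here at a probe set of only 650.2 and 780.2, against 829.6 and 721, a log2 difference of -0.12 (adjusted p = 0.584). Rps19 had 23086 and 22628, against 21232 and 21911, a log2 difference of 0.084 (adjusted p = 0.239). Rps3, at the mRNA entry, had 21898 and 20566, against 18599.7 and 19688, a log2 difference of 0.15 that missed the threshold (adjusted p = 0.0706). A dimmer Rps3 probe set, at 963 and 941, against 1259.9 and 1200.5, was lower by the test (log2 -0.37, adjusted p = 0.0169). Among the 11 genes whose loss causes Diamond-Blackfan anaemia in humans, 1 was higher and 0 lower, beside 10.3% and 7.79% of all tested genes. All 11 had a difference above 0 on the deposited scale, beside 51.9% of all tested genes. Their median log2 difference was 0.11, or -0.028 after quantile normalization with 0 higher and 0 lower.

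Paralogs of 2 large subunit proteins had larger differences than any core gene with higher signal. Rpl39l, which in mice is expressed mainly in testis and can replace Rpl39 at the exit tunnel, had signals of 4448 and 4978 in the Chd4 RNAi arrays, against 2930.5 and 2955 in the controls. The rise was 59.9% (log2 0.68 ± 0.069 SE, limma adjusted p = 1.07e-04), and the log2 difference after quantile normalization was 0.67 (adjusted p = 1.31e-04). Rpl39 itself was dim, with 324 and 336, against 323 and 312, and a log2 difference of 0.057 ± 0.15 (adjusted p = 0.847). Rpl39 and Rpl39l mRNAs are similar in their coding part, and cross-binding between their probes was not tested.

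Rpl22l1 encodes a paralog that Rpl22 is known to hold down in mouse cells. It had signals of 13248 and 13722 in the Chd4 RNAi arrays, against 9484 and 9441 in the controls. The rise was 42.5% (log2 0.51 ± 0.049 SE, limma adjusted p = 7.47e-05), and the log2 difference after quantile normalization was 0.48 (adjusted p = 7.74e-05). Rpl22 at its brightest probe set had 31547 and 28845, against 25964 and 26999.9, a rise of 13.9% (adjusted p = 0.0285). Its second bright probe set, which carries no mark of cross-binding in its name, had 19992 and 20212, against 20119 and 20924, a log2 difference of -0.030 (adjusted p = 0.724). After quantile normalization these differences were 0.052 (adjusted p = 0.298) and -0.12 (adjusted p = 0.0408). The probe sets of Rpl22 thus differ in sign, and no direction is given for the gene.

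The calls for Rpl22l1, Rpl39l, Rplp2 and Rps25 were kept in 12 of 13 alternatives each and ended only where limma ran with no intensity trend. The adjusted p was then 0.115 for Rpl22l1, 0.103 for Rpl39l, 0.215 for Rplp2 and 0.0685 for Rps25. Each of the 4 kept its direction in all 13.

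Rpl3l, a striated muscle paralog of Rpl3, was dim, with signals of 72.4 and 123 in the Chd4 RNAi arrays, against 14.5 and 29.9 in the controls. The control signals lie under the median signal of those arrays, 75.2 and 76.5, so no fold is given. It passed the filter on dim signals through the Chd4 RNAi arrays alone, so its call (limma, adjusted p = 0.0197) is a description, though it is 1 of the 16 genes and 22 probe sets counted as higher. With no filter the adjusted p of Rpl3l was 0.0653, and the call also ended without an intensity trend, without control replicate 1 and without Chd4 RNAi replicate 2. Rps27l, a paralog of Rps27 induced by p53, had log2 differences between -0.10 and -0.020 at its 3 probe sets, none of which passed. After quantile normalization its dimmest probe set was lower (log2 -0.17, adjusted p = 0.0184). Rps4l had 9636 and 9462, against 9538 and 9613, a log2 difference of -0.0041 (adjusted p = 0.969). Rpl7l1 had a log2 difference of 0.044 and Rps19bp1 of -0.12, and neither passed.

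Many ribosomal protein genes are read on this array only by probe sets annotated to a further symbol, often a pseudogene or a predicted gene. Rplp1, Rpl3, Rpl5 and Rpl10 are among 31 such symbols. Of the 110 probe sets of this kind, 106 were tested, 34 were higher and 5 lower, beside 7.46% and 6.77% of all tested probe sets, and the median log2 difference was 0.12. Of these, 79 lay in the top 2% of signals, with 28 higher and 0 lower, where 16.6% of other probe sets were higher. The 27 tested below it had 6 higher, 5 lower and a median of -0.0029. After quantile normalization 12 of the 106 were higher and 7 lower, beside 7.11% and 6.64%, and the median was 0.0093. These probe sets cannot be given to a single gene. Fau, whose product is cut to give Rps30, has a probe set of its own, with 21284 and 20912 in the Chd4 RNAi arrays, against 18251 and 19655 in the controls, a log2 difference of 0.16 (limma, adjusted p = 0.0547).

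Other genes of the translation machinery were read from lists, beside a background of 10.3% of all tested genes higher and 7.79% lower, or 9.92% and 7.57% after quantile normalization. In the initiation factors 9 of 39 tested genes were higher and 2 lower, with a median log2 difference of 0.066, or 0.040 after quantile normalization with 6 higher and 2 lower. Of these genes, 20 lay in the top 2% of signals, where 16.6% of probe sets outside the ribosomal proteins were higher. Denr, a factor for reinitiation and ribosome recycling, had signals of 6849 and 6843 in the Chd4 RNAi arrays, against 5441 and 5466 in the controls (log2 0.33, limma adjusted p = 0.00227). Eif4g3, a scaffold of the cap-binding complex, had 1342 and 1336, against 867 and 818 (log2 0.67, adjusted p = 6.16e-04). Eif4e2, a cap-binding repressor, was lower (log2 -0.25, adjusted p = 0.0142). In the list of elongation factors, which also holds related genes, 2 of 12 were higher, Eef1a1 and Eef1d. The 2 that were lower were Eef1e1 (log2 -0.26, limma adjusted p = 0.00894) and Eef2k. The median of the list was 0.10, or 0.026 after quantile normalization with 1 higher and 2 lower. Eef1a1, which brings aminoacyl-tRNA to the ribosome, had 31926 and 29173, against 26194 and 26258 (log2 0.22, adjusted p = 0.0123), and a log2 difference of 0.076 after quantile normalization (adjusted p = 0.141). Eef2k, the kinase that inhibits Eef2, had 208 and 229.5, against 353 and 349 (log2 -0.68, adjusted p = 0.0154).

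Among 19 tested 5′ TOP mRNAs outside the ribosome, 17 of them in the top 2% of signals, 7 were higher and 1 was lower, beside 10.3% and 7.79% of all genes and 16.6% and 7.71% of the other probe sets in that bright range. Their median log2 difference was 0.12, or 0.050 after quantile normalization with 3 higher and 1 lower. Nap1l1, a histone chaperone, was higher on both scales (log2 0.22, limma adjusted p = 0.0117), and Vim, an intermediate filament protein, lower (log2 -0.78, adjusted p = 4.46e-04).

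Genes of the machinery that builds ribosomes were read against the same 10.3% higher and 7.79% lower of all tested genes. In the small subunit processome 1 of 44 tested genes was higher and 0 lower, with a median log2 difference of -0.0045, or -0.0031 after quantile normalization with 1 higher and 1 lower. The gene that passed was Utp14a, a cofactor of the processome (log2 0.27, limma adjusted p = 0.0216). In large subunit assembly and export 3 of 58 were higher and 3 lower, with a median of 0.0039, and the counts were 3 and 3 after quantile normalization. Spata5, an ATPase of late assembly, was higher (log2 0.38, adjusted p = 0.00771), and Noc2l and Rrs1, assembly factors, were lower (log2 -0.41 and -0.32, adjusted p = 0.00575 and 0.00946). Of the nucleolar scaffold and modification proteins 0 of 11 passed, with 3 higher and 0 lower at an unadjusted p under 0.05, and 0 passed after quantile normalization. In the RNA polymerase I list 2 of 16 were higher and 2 lower on both scales. Polr2h and Polr2e were higher (log2 0.29 and 0.22, limma adjusted p = 0.0090 and 0.0257). Znrd1 and the initiation factor Rrn3 were lower (log2 -0.40 and -0.31, limma adjusted p = 0.00206 and 0.00931).

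Stem cell markers and markers of other cells were read beside these values. Of 10 stem cell markers 2 were higher and 2 lower, beside 10.3% and 7.79% of all tested genes. After quantile normalization 1 was higher and 4 lower, beside 9.92% and 7.57%. Utf1 and Dppa5a were higher (log2 0.31 and 0.19, limma adjusted p = 0.0142 and 0.0161), and Utf1 alone of them passed after quantile normalization. Esrrb and Klf4 were lower on both scales (log2 -0.29 and -0.25, limma adjusted p = 0.00722 and 0.0106). Pou5f1 had a log2 difference of -0.17 (limma, adjusted p = 0.0856), and of -0.20 after quantile normalization (adjusted p = 0.0480). Tdgf1 had one of -0.13 (adjusted p = 0.143), and of -0.21 after quantile normalization (adjusted p = 0.00838). Sox2 was at 0.072 and Nanog at 0.0056, with bright signals in both groups. Of 9 fibroblast markers 3 passed the filter on dim signals, 1 of them was higher on both scales, and the summed signal of the list was 901 and 827 in the Chd4 RNAi arrays, against 518 and 553 in the controls. Most of that came from Thy1, at 601 and 547, against 176 and 199.5, while the collagen genes Col1a1 and Col3a1 and Dcn were near 0 in both groups. The summed signal of 9 extraembryonic endoderm markers was 767 and 693, against 761 and 763. Of 6 tested, 0 were higher and 1, the laminin gene Lama1, was lower on both scales (log2 -0.54, limma adjusted p = 0.0378). Pdgfra, Sox7 and Dab2 were dim, had log2 differences of 1.18, 0.96 and 0.31, and did not pass. Gata6 and Gata4 had differences of -0.011 and -0.0074, and the median of the 6 was 0.15. The part of these genes in the ribosomal protein values was not tested.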

How the data were processed

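Total RNA of the 4 samples was labelled and hybridised to Affymetrix mouse 430 2.0 arrays. The deposited values are intensity signals, 1 per probe set and array. The authors made them with MAS5, as the submitters' processing notes record, with version and scaling target not given in the sources used here. Signals were taken as log2 without a pseudocount. The 27022 probe sets in the top 60% by mean log2 signal (a mean of at least 42.45) were fitted in limma 3.58.1 (R 4.3.3) with eBayes and an intensity trend, on 2 residual and 9.24 prior degrees of freedom. P-values were adjusted over all of them by Benjamini-Hochberg, with a threshold of 0.05. A gene took the value of its brightest probe set with a single symbol (12615 genes tested). The main alternative, quantile normalization, is given beside the counts. Others were centring on the median, log2(signal + 32), no filter or the top 40%, no trend, robust eBayes, the replicate number as a block, each array left out, and probe sets averaged or without _x_at and _s_at names.

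Symbols came from the platform annotation, and all 106 members matched RefSeq by gene identifier. The genes named were the targeted gene, up to 10 core genes with the largest called difference each way, every paralog and relative, a panel chosen by role, and up to 4 called genes of each other list, with further genes chosen after their values were seen. The members and lists were chosen with earlier results of these data known. The replicate differences of the groups correlated at -0.0019 over the probe sets tested and at 0.080 over the members, so little shared replicate effect was seen. Whether samples of the same replicate number were paired cannot be told from these values. That replicates are biological duplicates is stated by the series alone. The number of arrays limits the precision. The fitting steps were tested on data simulated from the fitted model, intensity trend included, so that test cannot judge the trend itself.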

Additional observations from a re-analysis of the deposited data

How the results depend on the processing

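With 2 arrays a group, calls rest on the spread that limma pools over probe sets. Without an intensity trend limma called 0 probe sets in all, so every count below is 0 there, and Chd4 was at -0.62 (adjusted p = 0.197). Member probe sets called higher numbered 22, against 4 after quantile normalization, 6 with arrays centred on the median, 5 with no filter, 13 with the replicate block and 14 without _x_at and _s_at probe sets, and 5 to 28 with an array left out. Those called lower numbered 4, against 9 after quantile normalization, 2 with no filter, and 1 to 3 with an array left out. Genes called higher numbered 16, against 4 after quantile normalization, 5 with median centring, 4 with no filter and 9 with the replicate block, and 4 to 20 with an array left out. Genes called lower numbered 2, against 1 with median centring or no filter, and 1 to 2 with an array left out. Large subunit genes called higher numbered 11, against 1 after quantile normalization, 2 with median centring or no filter and 5 with the replicate block, and 2 to 11 with an array left out. The 1 large subunit gene called lower became 0 with median centring, no filter or no _x_at and _s_at probe sets, and 0 to 1 with an array left out. Small subunit genes called higher numbered 2, against 0 after quantile normalization, with median centring or with no filter, 1 with the replicate block, without _x_at and _s_at probe sets or centred on bright probe sets, 5 averaged over probe sets, and 0 to 7 with an array left out. The 1 called lower became 2 after quantile normalization and 2 without _x_at and _s_at probe sets. The median log2 difference of core genes was 0.129, against 0.0180 after quantile normalization and 0.0892 averaged over probe sets, and 0.0845 to 0.160 with an array left out. The large minus small difference was 0.027 and lay between 0.040 and 0.052 with an array left out. Genes of the translation and assembly lists called higher numbered 20, against 7 with median centring, 9 with no filter and 12 centred on bright probe sets, and 8 to 16 with an array left out. Rpl41 changed sign to -0.0473 averaged over its probe sets and -0.282 without _x_at and _s_at probe sets, and Rpl22 to -0.0295 without them. No other called member gene changed sign in an alternative run, though 24 of the 42 tested core genes had a difference above 0 after quantile normalization, against 38 on the deposited scale. Of the values of single genes under these alternatives, 684 stayed on their side of the threshold, 216 lost their call, 6 gained one and the 3 given changed sign. The replicate block changed no call of Rpl22l1, Rpl39l, Rplp2 or Rps25. The values of single genes averaged or without _x_at and _s_at names, and the settings centred on bright probe sets and with a fit on a single probe set per gene were chosen after seeing the data. The cause of each change was not tested.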
